A study of Mus musculus with 30 samples.

Results

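Midkine (Mdk), pleiotrophin (Ptn) and 6 genes for receptors that bind them (Lrp1, Ncl, Sdc1, Sdc2, Sdc3 and Sdc4) were examined as a ligand and receptor group, which was chosen by name and makes 8 genes. Rows of 7 of these 8 genes were found by symbol among the 14685 genes of the deposited table, and Ptn was not analysed here. RNA was sequenced from mouse E14 cells of 5 populations on the path from embryonic stem cells (ESC) to blood. Besides ESC, these were Flk1+ cells purified from embryoid bodies, and KIT+ cells sorted at day 2 of blast culture into haemogenic endothelium 1 (HE1; CD41- Tie2+), haemogenic endothelium 2 (HE2; CD41+ Tie2+) and progenitors (CD41+ Tie2-). Each population was taken from wild-type (WT) cells, from Sp1 ΔDBD/ΔDBD cells (labelled Sp1_deltaDBD), in which the DNA-binding domain of the transcription factor Sp1 is deleted on both alleles, and from Sp3-/- cells (labelled Sp3KO), which lack the related factor Sp3. There were 2 biological replicates in each of the 15 groups, 30 samples in all. The mutated Sp1 gene still makes a truncated protein, so these cells are not a null for Sp1. All groups carry a single E14 label, so an effect of the genotype and a difference between derived lines cannot be told apart.

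Midkine and pleiotrophin are secreted, heparin-binding growth factors that are abundant in the embryo and are made by many cell types. They have no single dedicated receptor. They are held at the cell surface by the heparan sulfate chains of syndecans, and signal or are taken up through a set of membrane proteins that includes the endocytic receptor Lrp1, surface nucleolin, integrins and the phosphatase Ptprz1. Sp1 and Sp3 are ubiquitous zinc finger factors that bind GC boxes in promoters.

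The genes lie on 6 chromosomes in the annotation of the GRCm38 build (GENCODE M21), which is the assembly that mm10 names. All are protein coding. Mdk is a short gene at chr2:91929805-91932297, and Sdc4 lies on the same chromosome at chr2:164424247-164443887. Lrp1 is at chr10:127538161-127621148, Ncl at chr1:86344719-86359400, Sdc1 at chr12:8771323-8793715, Sdc2 at chr15:32920723-33034935 and Sdc3 at chr4:130792537-130826319. Ncl carries snoRNA genes within its span, of which Snora75, Gm24148 and Snord82 have rows of their own in the table, and the antisense genes Gm16217 and Gm12970 and Gm26716 overlap Lrp1 and Sdc3. It is not given in the sources used here whether strand was used in counting, so reads of these antisense genes cannot be told apart from those of Lrp1 and Sdc3.

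The promoters are shown because the mutated factors bind the GC box, here searched as GGGCGG on either strand (CCGCCC when read on the other), with no other motif searched. RefSeq promoter sequences (GRCm38.p6) were found for 5 of the 7 genes analysed, and not for Mdk and Sdc2. The stretch upstream of the start site is printed from 5′ to 3′ on the strand of the gene, without bases that an exon covers, and capitals mark the GC boxes.
Lrp1, chr10:127621149-127621398 (-): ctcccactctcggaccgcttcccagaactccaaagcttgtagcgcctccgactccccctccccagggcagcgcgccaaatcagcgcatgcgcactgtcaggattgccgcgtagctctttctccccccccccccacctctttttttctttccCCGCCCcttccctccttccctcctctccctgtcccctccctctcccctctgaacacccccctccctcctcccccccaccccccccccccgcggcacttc
Ncl, chr1:86359456-86359573 (-): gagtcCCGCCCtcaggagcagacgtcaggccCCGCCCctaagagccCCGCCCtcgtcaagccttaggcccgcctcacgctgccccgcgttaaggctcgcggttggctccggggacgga
Sdc1, chr12:8771182-8771322 (+): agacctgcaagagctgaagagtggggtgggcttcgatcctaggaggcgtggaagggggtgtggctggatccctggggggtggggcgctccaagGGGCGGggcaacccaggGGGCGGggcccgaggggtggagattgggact
Sdc3, chr4:130792287-130792536 (+): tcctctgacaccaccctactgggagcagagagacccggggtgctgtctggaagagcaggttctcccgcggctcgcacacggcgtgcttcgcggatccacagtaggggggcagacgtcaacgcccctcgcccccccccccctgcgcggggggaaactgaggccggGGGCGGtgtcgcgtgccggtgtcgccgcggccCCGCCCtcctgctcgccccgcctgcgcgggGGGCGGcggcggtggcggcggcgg
Sdc4, chr2:164443189-164443438 (-): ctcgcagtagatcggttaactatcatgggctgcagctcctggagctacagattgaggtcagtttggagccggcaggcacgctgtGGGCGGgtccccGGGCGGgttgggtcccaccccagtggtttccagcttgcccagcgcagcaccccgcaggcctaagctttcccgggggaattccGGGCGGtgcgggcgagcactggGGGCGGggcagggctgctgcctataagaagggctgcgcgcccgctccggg

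In the full 250 bases before the start site, Sdc4 held 4 GC boxes, Ncl, Sdc1 and Sdc3 held 3 each, and Lrp1 held 1. Ptn, which has such a promoter entry but was not analysed, held 0 and is not printed. For Sdc1, 2 of its 3 boxes lie in the stretch printed. Among the 14096 such promoters of genes in the table, 55.9% held at least 1 GC box and 16.05% held at least 3. A match describes the letters of the promoter and not a site occupied by Sp1 or Sp3. The RefSeq start sites of Sdc1 and Sdc4 lie inside the span that GENCODE gives these genes, and that of Ncl lies outside it.

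The values are FPKM, fragments per kilobase of gene model scaled to sequencing depth, quantile normalised across all samples by the authors, so that the median of a sample is 7.19. They are scaled by length, and levels of different genes were compared on this scale only. No read counts go with them and the depth is unknown, so the spread between the 2 replicates is the measure of error. Differences are given on the log2(FPKM + 0.1) scale, with the standard error (SE) of a limma fit over all 30 samples and a two-sided p adjusted over the 14525 genes tested, and are called where it is under 0.05. With 2 samples against 2, the smallest p of an exact permutation test is 0.333, so none was used. The Sp3 row fell in Sp3-/- cells in all 5 populations, by 2.40 to 3.32 on the log2 scale. Sp1 RNA is not a check of the Sp1 ΔDBD/ΔDBD cells, since only part of the gene is deleted.

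Some libraries stood apart. In HE1, HE2 and progenitor cells, markers of other lineages were high in replicate 1 of WT and Sp1 ΔDBD/ΔDBD. The summed FPKM of 5 of 5 epithelial markers was 809.7 and 77.7 in the replicates of WT HE1, 253 and 11.6 in Sp1 ΔDBD/ΔDBD HE1 and 80.6 and 31.1 in Sp3-/- HE1. That of 5 of 5 smooth and cardiac muscle markers was 1678 and 356, 984 and 248, and 195 and 123 in the same order, and that of 3 of 5 fibroblast markers 193 and 28.8, 41.8 and 9.18, and 15.1 and 14.2. The same replicates were high in epithelial markers in HE2 and progenitors (sums of 242 and 16.0 in WT HE2, and 151 and 36.1 in WT progenitors). In Sp1 ΔDBD/ΔDBD these sums were 135 and 9.02 in HE2, and 71.9 and 7.20 in progenitors. Not every list was high in each of these libraries. The fibroblast sum was 3.15 and 1.18 in Sp1 ΔDBD/ΔDBD progenitors, against 4.47 and 6.86 in Sp3-/- and 42.7 and 14.6 in WT. Epcam, a defining epithelial marker, was at most 0.448 FPKM in all HE1, HE2 and progenitor samples and Cdh1 at most 2.33, while Krt8 reached 386. The muscle sum was mostly Acta2 (1138 and 224 in the replicates of WT HE1) and Tagln (517 and 117). Of its other genes there, Cnn1 was at 15.9 and 2.23 and Myl7 at 1.69 and 0, and Tnnt2 went the other way, at 5.83 and 13.6. The high epithelial and muscle sums thus rest mainly on keratins, Acta2 and Tagln. In progenitors, 5 of 5 erythroid markers summed to 13617 and 4517 in WT, 9674 and 7268 in Sp1 ΔDBD/ΔDBD and 1524 and 3474 in Sp3-/- cells. Results in these populations were therefore also calculated without these 6 libraries, replicate 1 of WT and Sp1 ΔDBD/ΔDBD in each population (the marker-rich libraries). This leaves 1 sample in each of these groups, taken to vary like the others. A p or a count of calls from that fit draws its spread from other groups, so it is no test of the groups compared. Differences found in that fit are given below. In bulk samples, fewer cells of a type and less RNA per cell cannot be told apart. ESC samples carried the summed pluripotency markers (5 of 5) at 1086 to 1331 FPKM, against at most 2.16 in the sorted blast culture populations. Kdr, which encodes Flk1, was at 165 to 257 in Flk1+ cells. The sum of 5 of 5 mesoderm markers, Kdr among them, was 339 and 318 in WT Flk1+ cells. It was 340 and 376 in Sp1 ΔDBD/ΔDBD and 544 and 594 in Sp3-/- Flk1+ cells. That of the pluripotency markers there was 41.3 and 31.9, 54.0 and 21.6, and 94.9 and 97.6 in the same order.

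Mdk was the ligand measured, and it was high in every sample, from 19.0 to 275 FPKM with a median of 69.2. In WT ESC it stood at 72.1 and 50.3 FPKM in the 2 replicates, and in Flk1+ cells at 249 and 219.7. In HE1 it was at 99.4 and 78.8, in HE2 at 70.8 and 66.1 and in progenitors at 73.4 and 53.6. Both Flk1+ samples lay far above all others of WT, and HE2, progenitors and ESC overlapped with their neighbours in the order of levels. Mdk rose from ESC to Flk1+ cells by 1.96 ± 0.33 (SE) on the log2 scale, 3.88-fold (adjusted p = 6.14e-05), and fell by 1.40 ± 0.33 from Flk1+ to HE1 cells (adjusted p = 0.00153). The later steps, from HE1 to HE2 and from HE2 to progenitors, did not pass the test.

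**Figure D1:**
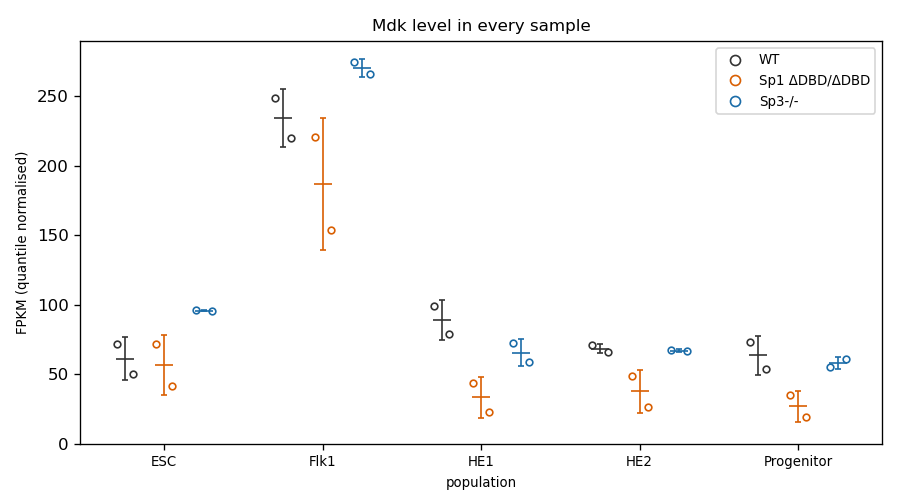
Mdk level (FPKM, quantile normalised, linear axis from 0) in the 5 populations, coloured by genotype. Circles are the 2 replicates, bars the mean with its SD. The Flk1+ samples are highest in each genotype, and the Sp1 ΔDBD/ΔDBD samples of HE1, HE2 and progenitors, at 19.0 to 48.7 FPKM, lie below the WT samples of their population.

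In Sp1 ΔDBD/ΔDBD cells, Mdk fell in HE1 and progenitors. It was at 43.8 and 22.9 FPKM in HE1, 48.7 and 26.7 in HE2, with 34.7 and 19.0 in progenitors, and in these 3 populations both mutant samples were below both WT samples. Of all genes, 50.0%, 45.7% and 44.5% did not overlap there, in either direction. In ESC (72.1 and 41.5) and Flk1+ cells (220.4 and 153) the mutant samples overlapped with WT. Mdk fell by 1.48 ± 0.33 in HE1, 2.79-fold (adjusted p = 0.00776), and by 1.29 ± 0.33 in progenitors, 2.44-fold (adjusted p = 0.0198). In HE2 the difference was -0.92 ± 0.33 (95% interval -1.62 to -0.23) and did not pass (adjusted p = 0.0866, or 0.0310 with the replicate number as a block). In ESC it was -0.14 (-0.83 to 0.56) and in Flk1+ cells -0.35 (-1.04 to 0.35). Without the 6 libraries high in epithelial and muscle markers, 1 mutant and 1 WT sample were left in each of HE1, HE2 and progenitors. The differences were then -1.78, -1.31 and -1.49 in that order. The call in HE1 was lost without WT replicate 1 (adjusted p = 0.0825) or mutant replicate 2 (adjusted p = 0.163), and the call in progenitors without WT replicate 1 (adjusted p = 0.156) or mutant replicate 2 (adjusted p = 0.174).

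In Sp3-/- cells Mdk was at 95.9 and 95.5 FPKM in ESC, 275 and 266 in Flk1+ cells, 72.2 and 58.5 in HE1, 67.6 and 66.3 in HE2, with 54.9 and 61.2 in progenitors. Both ESC samples and both Flk1+ samples were above WT and both HE1 samples below it, where 61.0%, 68.0% and 61.4% of all genes did not overlap. The other 2 populations overlapped with WT. None of the differences from WT in the 5 populations passed the test, from 0.67 in ESC (95% interval -0.03 to 1.36, adjusted p = 0.219) to -0.44 in HE1 (-1.14 to 0.25, adjusted p = 0.436). The comparisons of both mutants share their WT samples.

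Lrp1 encodes a large endocytic receptor of the LDL receptor family, and its RNA varied 17.5-fold between the highest and the lowest group mean. In WT it was at 5.93 and 4.97 FPKM in ESC, 38.3 and 50.0 in Flk1+ cells, 24.5 and 13.7 in HE1, 5.03 and 2.38 in HE2, with 4.69 and 3.20 in progenitors. Flk1+ cells were highest, followed by HE1, and HE2 and progenitors overlapped. Lrp1 rose from ESC to Flk1+ cells by 2.99 ± 0.33, 7.93-fold (adjusted p = 3.21e-07), and fell by 1.25 ± 0.33 from Flk1+ to HE1 cells (adjusted p = 0.00347) and by 2.37 ± 0.33 from HE1 to HE2 cells (adjusted p = 6.21e-05). Without WT HE1 replicate 2 the fall from Flk1+ cells was 0.83 and did not pass (adjusted p = 0.0822).

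In Sp1 ΔDBD/ΔDBD HE2 cells, Lrp1 was at 9.95 and 9.41 FPKM, above both WT samples, and it rose by 1.45 ± 0.33, 2.74-fold (adjusted p = 0.00794). The call was lost without WT replicate 2 (difference of 0.93) or mutant replicate 2 (1.49). Without the 6 marker-rich libraries the difference was 1.94, from 1 mutant sample against 1 of WT. In the other populations of this mutant Lrp1 was at 8.49 and 6.71 (ESC), 36.3 and 48.8 (Flk1+), 22.0 and 34.7 (HE1) and 2.65 and 4.51 FPKM (progenitors). In Sp3-/- cells it was at 5.81 and 6.53 in ESC, 28.2 and 33.2 in Flk1+ cells, 15.9 and 13.2 in HE1, 5.43 and 5.16 in HE2, with 2.36 and 2.69 in progenitors. None of the differences in these 9 groups passed. Without the 6 marker-rich libraries, which leaves 1 WT sample in each, the difference went from 0.59 to 1.33 in Sp1 ΔDBD/ΔDBD HE1 and from 0.60 to 1.12 in Sp3-/- HE2.

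Ncl encodes nucleolin, an abundant nucleolar protein of ribosome synthesis that also reaches the cell surface. It was high in all samples, from 54.5 to 172 FPKM, and its group means varied 2.42-fold, the least of the 7 genes. Its replicates differed by much of that range, for example 65.8 and 129 FPKM in Sp1 ΔDBD/ΔDBD HE2 cells, while both WT Flk1+ samples were at 128 FPKM. In WT it was at 117 and 158 in ESC, 86.7 and 58.7 in HE1, 132 and 89.5 in HE2, with 141 and 88.9 in progenitors. Ncl fell by 0.85 ± 0.29 from Flk1+ to HE1 cells (adjusted p = 0.0195). That call was lost in 3 of 4 fits that left out a replicate, without WT Flk1+ replicate 1 (adjusted p = 0.0701) or 2 (0.0711) or WT HE1 replicate 2 (0.200 for a difference of -0.57). Ncl in Sp1 ΔDBD/ΔDBD cells ranged from 54.5 to 139 FPKM and in Sp3-/- cells from 81.6 to 172, and no difference from WT passed in either mutant.

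**Figure D2:**
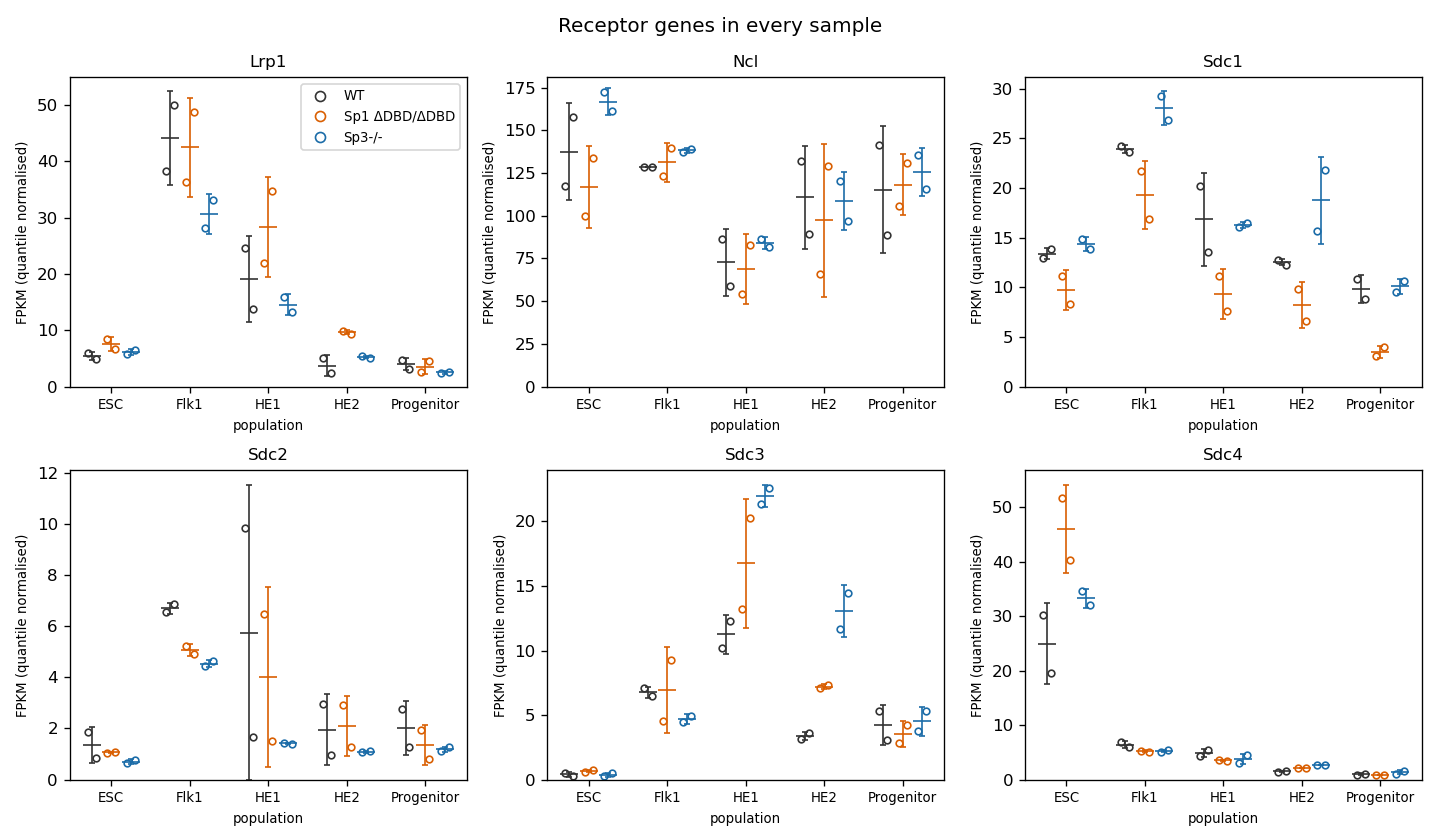
FPKM (quantile normalised, linear axes from 0, with a scale for each panel) of the 6 receptor genes in the 5 populations. Circles are the 2 replicates of a genotype, bars the mean with its SD. Lrp1 and Sdc1 are highest in Flk1+ cells, Sdc3 in HE1 and Sdc4 in ESC, where it reaches 51.8 FPKM.

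The syndecans are a family of 4 transmembrane proteoglycans whose heparan sulfate chains bind growth factors. Sdc1, best known from epithelia and plasma cells, was the syndecan with the highest level in WT cells from Flk1+ cells onwards. In WT it was at 13.0 and 13.8 FPKM in ESC, 24.3 and 23.6 in Flk1+ cells, 20.2 and 13.6 in HE1, 12.8 and 12.3 in HE2, with 10.8 and 8.85 in progenitors. The HE1 samples overlapped with ESC in the order of levels, and the other neighbours did not overlap. Sdc1 rose from ESC to Flk1+ cells by 0.83 ± 0.23 (adjusted p = 0.00507). The fall to HE1 (-0.53, adjusted p = 0.0603) and the later steps did not pass. That fall was called after adjustment for GC content and length (-0.72, adjusted p = 0.00731), with the replicate number as a block (adjusted p = 0.0314) and in a fit of the WT samples alone (adjusted p = 0.0484). Without the 6 marker-rich libraries, which leaves 1 WT HE1 sample, the difference was -0.81.

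Sdc1 fell in HE1 and progenitors of Sp1 ΔDBD/ΔDBD cells, and both mutant samples were below both WT samples in all 5 populations. In a single population, 44.5% to 55.2% of all genes did not overlap, in either direction. The share of all genes below WT in all 5 populations was not calculated. The mutant samples were at 11.2 and 8.33 FPKM in ESC, 21.7 and 16.9 in Flk1+ cells, 11.1 and 7.59 in HE1, 9.87 and 6.61 in HE2, with 3.08 and 3.96 in progenitors. The fall passed the test in HE1 (by 0.84 ± 0.23, adjusted p = 0.0259) and in progenitors (by 1.46 ± 0.23, 2.75-fold, adjusted p = 0.000553). In HE2 the difference was -0.63 (95% interval -1.11 to -0.15) and did not pass (adjusted p = 0.0933), nor did those in ESC and Flk1+ cells. The call in progenitors was kept in all 4 fits that left out a replicate (adjusted p of at most 0.0126), and that in HE1 was lost without WT replicate 1 (adjusted p = 0.286) or mutant replicate 2 (adjusted p = 0.310). Without the 6 marker-rich libraries, which sets 1 sample against 1, Sdc1 was lower by 0.83 in HE1, 0.89 in HE2 and 1.14 in progenitors. In Sp3-/- cells it was at 14.9 and 13.9 in ESC, 29.3 and 26.9 in Flk1+ cells, 16.1 and 16.5 in HE1, 15.7 and 21.8 in HE2, with 9.58 and 10.7 in progenitors, and no difference passed (HE2, 0.56, adjusted p = 0.112).

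Sdc2, known from mesenchymal cells, was the lowest of the syndecans by its median (1.47 FPKM). In WT it was at 1.87 and 0.844 FPKM in ESC, 6.54 and 6.86 in Flk1+ cells, 9.83 and 1.66 in HE1, 2.94 and 0.979 in HE2, with 2.76 and 1.26 in progenitors. Replicate 1 was the higher in HE1, HE2 and progenitors of both WT and Sp1 ΔDBD/ΔDBD (6.49 and 1.51, 2.93 and 1.26, and 1.92 and 0.811 in the mutant), the same libraries in which the epithelial and muscle markers were high. From Flk1+ to HE1 cells of WT the difference was -0.70 with all samples (adjusted p = 0.427). Without the 6 marker-rich libraries, which leaves 1 WT HE1 sample, it was -1.95, so that its size turned on them. Sdc2 rose from ESC to Flk1+ cells by 2.32 ± 0.70 (adjusted p = 0.00905), and this was lost without WT ESC replicate 2 (1.79, adjusted p = 0.104). In Sp3-/- cells it was at 0.642 and 0.765 in ESC, 4.43 and 4.64 in Flk1+ cells, 1.43 and 1.41 in HE1, 1.07 and 1.11 in HE2, with 1.12 and 1.26 in progenitors. It was, in Sp1 ΔDBD/ΔDBD ESC, at 1.06 and 1.07 and in Flk1+ cells at 5.22 and 4.90. No difference from WT passed in either mutant. Both mutant samples were below both WT samples in ESC, Flk1+ cells, HE1 and progenitors of Sp3-/- and in Flk1+ cells of Sp1 ΔDBD/ΔDBD, and the other 5 comparisons overlapped. Of all genes, 56.2% to 68.0% did not overlap, in either direction, in a population of Sp3-/-, and 44.5% to 55.2% in one of Sp1 ΔDBD/ΔDBD.

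Sdc3, the syndecan of the nervous system and a receptor of pleiotrophin there, varied most of the 7 genes, with a 57.9-fold range of group means. In WT it was at 0.547 and 0.263 FPKM in ESC, 7.07 and 6.46 in Flk1+ cells, 10.2 and 12.3 in HE1, 3.15 and 3.58 in HE2, with 5.34 and 3.11 in progenitors. HE1 was highest and ESC lowest, and progenitors overlapped with HE2. Sdc3 rose by 3.82 ± 0.35 from ESC to Flk1+ cells, 14.2-fold (adjusted p = 3.04e-08), and fell by 1.71 ± 0.35 from HE1 to HE2 cells (adjusted p = 0.00193).

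In Sp3-/- HE2 cells Sdc3 was at 11.6 and 14.5 FPKM, above both WT samples, and it rose by 1.92 ± 0.35, 3.78-fold (adjusted p = 0.00190). The call was kept in all 4 fits that left out a replicate (differences of 1.76 to 2.07). Without the 6 marker-rich libraries, which leaves 1 WT sample, the difference was 1.83. In Sp3-/- HE1 cells it was at 21.4 and 22.6, also above both WT samples, with a difference of 0.96 that did not pass (95% interval 0.23 to 1.70, adjusted p = 0.0849). HE2 cells of Sp1 ΔDBD/ΔDBD were at 7.06 and 7.33, a difference of 1.08 (0.34 to 1.81, adjusted p = 0.0594). With a pseudocount of 1 both were called (0.91 in each, adjusted p of 0.0271 and 0.0299), and the latter also after adjustment for GC content and length (adjusted p = 0.0413). The other Sp1 ΔDBD/ΔDBD samples were at 0.613 and 0.751 (ESC), 4.56 and 9.28 (Flk1+), 13.2 and 20.3 (HE1) and 2.84 and 4.23 FPKM (progenitors), and the other Sp3-/- samples at 0.256 and 0.503 (ESC), 4.44 and 4.96 (Flk1+) and 3.74 and 5.33 (progenitors). None of these 7 groups differed by a value that passed.

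Sdc4, a widely expressed syndecan of focal adhesions, was highest in ESC. In WT it was at 30.2 and 19.7 FPKM in ESC, 6.88 and 5.94 in Flk1+ cells, 4.43 and 5.43 in HE1, 1.49 and 1.64 in HE2, with 0.907 and 1.11 in progenitors. Its levels were lower in each later population without overlap between neighbours, and 2 of the 4 steps passed. Sdc4 fell by 1.91 ± 0.22 from ESC to Flk1+ cells, 3.77-fold (adjusted p = 5.00e-07), and by 1.59 ± 0.22 from HE1 to HE2 cells (adjusted p = 5.94e-05). The step between HE2 and progenitors (-0.59, adjusted p = 0.0826) did not pass, nor did that between Flk1+ and HE1 cells. Population accounted for 96.7% of its variance on the log2 scale over the 30 samples, the highest share of the 7 genes.

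In Sp1 ΔDBD/ΔDBD ESC, Sdc4 was at 51.8 and 40.3 FPKM, above both WT samples, and it rose by 0.90 ± 0.22, 1.87-fold (adjusted p = 0.0167). The call was lost without WT replicate 2 (0.60, adjusted p = 0.249) or mutant replicate 1 (adjusted p = 0.169). In the later populations of this mutant it was at 5.34 and 5.15 (Flk1+), 3.59 and 3.48 (HE1), 2.21 and 2.13 (HE2) and 0.858 and 0.796 FPKM (progenitors), and no difference passed. In Sp3-/- HE2 cells it was at 2.65 and 2.68 FPKM and rose by 0.73 ± 0.22, 1.66-fold (adjusted p = 0.0313). That call was lost in each of the 4 fits that left out a replicate (adjusted p of 0.0588 to 0.181). Without the 6 marker-rich libraries, which leaves 1 WT sample, the difference was 0.67. The other Sp3-/- samples were at 34.6 and 32.1 (ESC), 5.17 and 5.42 (Flk1+), 3.12 and 4.50 (HE1) and 1.12 and 1.62 FPKM (progenitors), without a call.

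**Figure D3:**
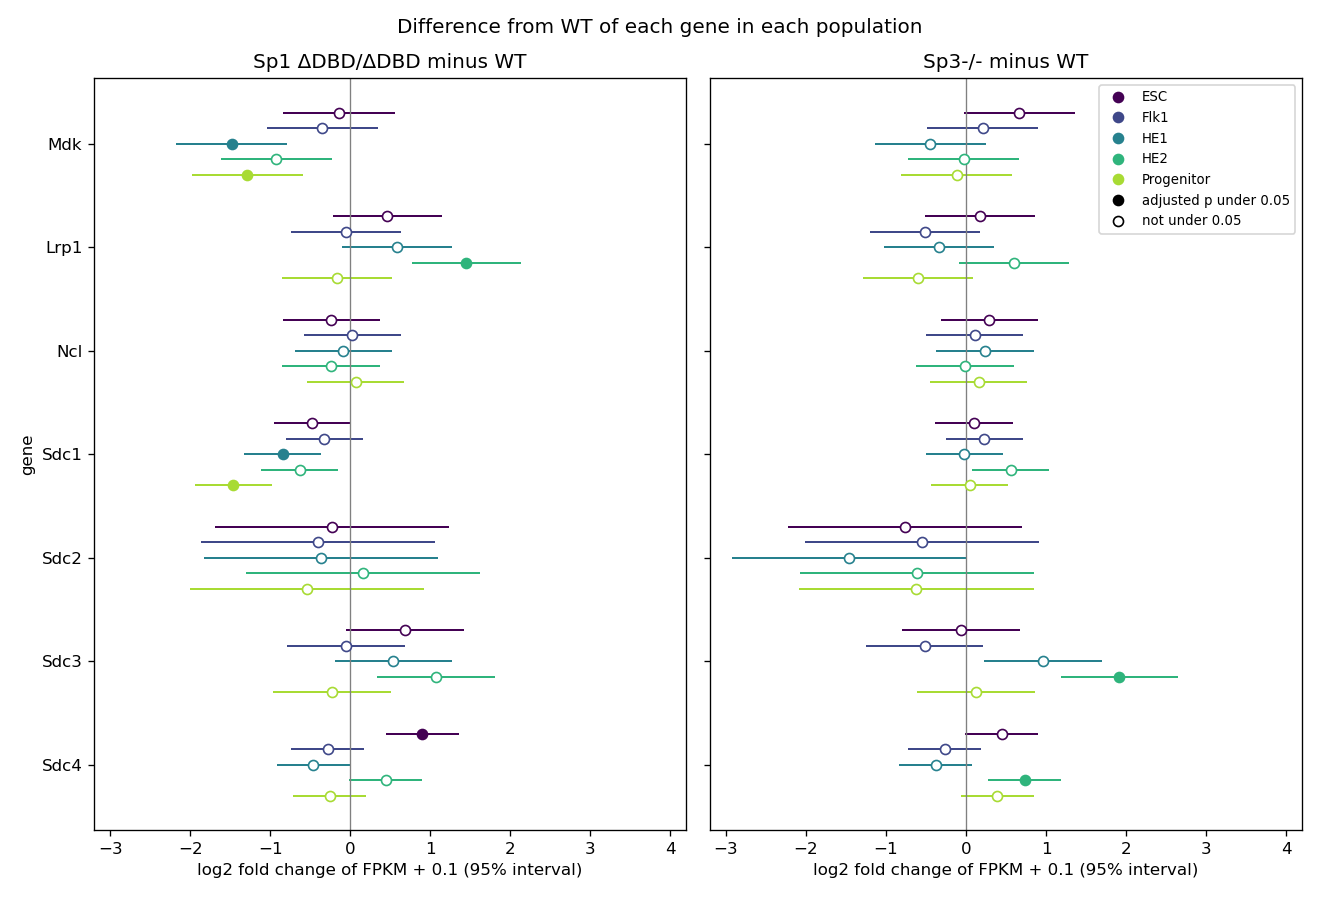
Difference from WT (log2 of FPKM + 0.1, x axis) of the 7 genes in Sp1 ΔDBD/ΔDBD (left) and Sp3-/- cells (right), with a point for each population and its 95% interval. Filled points passed the test, 6 of 35 on the left (Mdk and Sdc1 in HE1 and progenitors, Lrp1 in HE2, Sdc4 in ESC) and 2 of 35 on the right (Sdc3 and Sdc4 in HE2).

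The counts of calls are set against the share of all 14525 genes. In Sp1 ΔDBD/ΔDBD cells, 6 of 35 tests passed, 2 higher and 4 lower. In ESC 1 of 7 genes was higher and 0 lower, where 2.8% of all genes were higher and 3.26% lower. In Flk1+ cells 0 of 7 passed the limma test, and 0 had an unadjusted p under 0.05, against 2.92% higher and 2.62% lower. In HE1 2 were lower, against 4.35% of all genes (5.69% higher). In HE2 1 was higher, against 4.7% (4.97% lower), and in progenitors 2 were lower, against 5.04% (3.75% higher). Counts of 0 to 2 among 7 genes are too small to tell their share from the background. In a fit of each population by itself (6 samples), the 6 calls did not pass (adjusted p of 0.0628 to 0.173). Mutant and WT samples did not overlap, in either direction, in 19 of the 35 comparisons, where 45.2% of all genes did not overlap in ESC, 55.2% in Flk1+ cells, 50.0% in HE1, 45.7% in HE2, and in progenitors 44.5%.

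In Sp3-/- cells, 2 of 35 tests passed, both higher in HE2, where 6.97% of all genes were higher and 6.84% lower. In ESC 0 of 7 passed the limma test (5.4% of all genes higher, 5.91% lower), in Flk1+ cells 0 (6.69% and 5.94%), in HE1 0 (6.02% and 4.87%) and in progenitors 0 (3.88% and 4.77%). At an unadjusted p under 0.05 the count was 1 in HE1, and 0 in ESC, Flk1+ cells and progenitors. In the fits of each population by itself 1 passed, Sdc2 in Flk1+ cells (-0.55, adjusted p = 0.0387), and the calls of Sdc3 (adjusted p = 0.0581) and Sdc4 (adjusted p = 0.203) in HE2 did not. Samples did not overlap in 22 of the 35 comparisons, against 61.0% of all genes in ESC, 68.0% in Flk1+ cells, 61.4% in HE1, 59.0% in HE2, and in progenitors 56.2%.

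Between the WT populations, 12 of 28 tests passed. From ESC to Flk1+ cells 5 genes were higher and 1, Sdc4, lower, where 27.4% of all genes were higher and 24.7% lower. From Flk1+ to HE1 cells 3 were lower (Mdk, Lrp1 and Ncl) and 0 higher, against 29.5% and 23.5% of all genes. From HE1 to HE2 cells 3 were lower (Lrp1, Sdc3 and Sdc4) and 0 higher, against 10.2% and 11.7%. From HE2 to progenitors 0 of 7 passed the limma test, with 1 at an unadjusted p under 0.05 (Sdc4), against 5.46% higher and 7.78% lower.

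The makeup of the syndecan pool differed between populations. The summed FPKM of the 4 genes was 40.1 ± 7.76 (SD, n = 2) in WT ESC, 43.8 ± 1.31 in Flk1+ cells, 38.8 ± 8.24 in HE1, 19.4 ± 1.31 in HE2 and 17.1 ± 3.88 in progenitors. Both samples of HE2 and of progenitors were below all samples of the earlier populations. Sdc4 made up 66.2% and 56.8% of the sum in the WT ESC samples and 15.4% and 13.9% in the Flk1+ samples. Sdc1 made up 54.2% and 55.1% in Flk1+ cells, 45.2% and 41.1% in HE1, 62.8% and 66.5% in HE2, with 54.6% and 61.7% in progenitors.

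In the mutants Sdc4 led in both samples of ESC and Sdc1 in both samples of Flk1+ cells, and of Sp3-/- HE2 and progenitor cells, as in WT. In Sp1 ΔDBD/ΔDBD HE2 cells Sdc1 led in replicate 1, at 44.7% of the sum, and Sdc3 in replicate 2, at 42.3% against 38.1% for Sdc1. Progenitors of this mutant were split in the same way, with Sdc1 at 35.4% and 40.4% and Sdc3 at 32.6% and 43.1%, so neither gene led beyond the spread of the replicates. In HE1 Sdc3 led in both mutants, with its share at 38.3% and 61.7% of the sum in Sp1 ΔDBD/ΔDBD and 50.9% and 50.2% in Sp3-/- cells, against 22.9% and 37.4% in WT. The summed level in Sp1 ΔDBD/ΔDBD progenitors was 9.25 ± 0.77, below both WT samples (19.8 and 14.3), and that in Sp3-/- HE2 cells 35.6 ± 6.40, above both WT samples (20.4 and 18.5). These sums and shares were described and not tested, since exact permutation of 2 against 2 cannot pass.

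**Figure D4:**
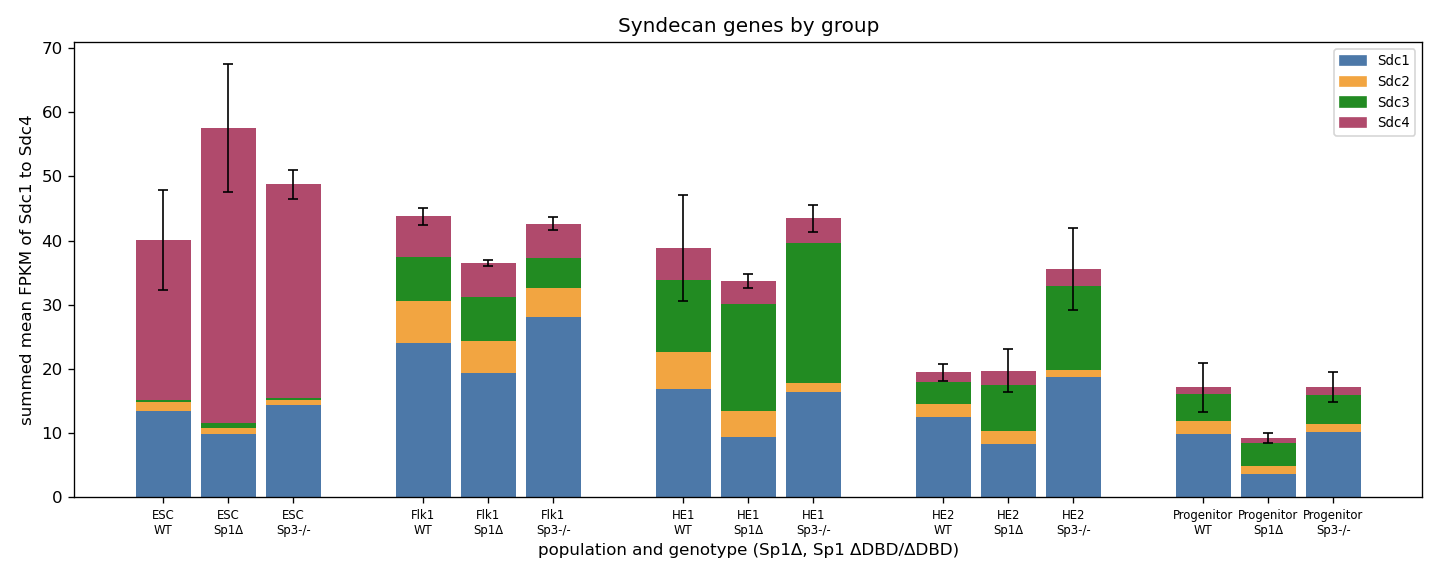
Summed mean FPKM of Sdc1 to Sdc4 in the 15 groups, stacked by gene on a linear axis from 0, with the SD of the sum over 2 replicates. Sdc4 leads in ESC and Sdc1 in Flk1+ cells, and the sum in Sp1 ΔDBD/ΔDBD progenitors, 9.25, is the lowest.

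To ask whether a mutation acted differently in a later population, its effect there was compared with its effect in ESC, in 56 tests of the 7 genes. Of these, 2 passed, both for Sdc4 in Sp1 ΔDBD/ΔDBD cells. Its effect was lower by 1.37 ± 0.31 in HE1 than in ESC (adjusted p = 0.0170) and lower by 1.16 ± 0.31 in progenitors (adjusted p = 0.0454). In Flk1+ cells the difference was -1.19 ± 0.31 (adjusted p = 0.0576), and in HE2, where Sdc4 was higher in the mutant as in ESC, -0.46 ± 0.31 (adjusted p = 0.528). For Mdk in this mutant it was -1.34 ± 0.47 in HE1 (adjusted p = 0.118) and -1.15 ± 0.47 in progenitors (adjusted p = 0.201), and neither passed. In HE1 the call for Mdk depended on the model. It passed with a block of the replicate number shared by the genotypes of a population (adjusted p = 0.0452), and with one shared by the populations of a genotype (adjusted p = 0.000243). The last block also called Mdk in HE2 (-0.79, adjusted p = 0.0122) and progenitors (adjusted p = 0.00150), and 11 of the 56 tests in all. For Lrp1 in Sp1 ΔDBD/ΔDBD HE2 cells the difference was 0.99 and did not pass (adjusted p = 0.309). Without the 6 libraries, which sets 1 sample against 1 in the later population, it was 1.47, and that of Mdk in HE1 was -1.64. Among all genes, 1.74% (Flk1+), 3.99% (HE1), 2.62% (HE2) and 3.15% (progenitors) passed for Sp1 ΔDBD/ΔDBD. For Sp3-/- cells 0 of 7 genes passed the limma test in each population, with 1, 2, 1 and 0 at an unadjusted p under 0.05, where 1.48%, 2.16%, 0.544% and 1.34% of all genes passed.

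Other genes of the pathway were taken from 5 lists, of which 70 genes were tested. In Sp1 ΔDBD/ΔDBD cells, 0 of them were higher and 2 lower in ESC (2.8% and 3.26% of all genes), 2 and 0 in Flk1+ cells (2.92% and 2.62%), 3 and 5 in HE1 (5.69% and 4.35%), 4 and 5 in HE2 (4.7% and 4.97%), with 0 and 6 in progenitors (3.75% and 5.04%). The counts of the lists come to at most 5.71% higher, in HE2, and 8.57% lower, in progenitors. Lrpap1, the chaperone that keeps ligands off Lrp1 while it folds, was lower in HE1 (6.64 against 21.4 FPKM, by 1.69 ± 0.25, adjusted p = 0.000255), in HE2 (by 1.71 ± 0.25, adjusted p = 0.000233) and in progenitors (by 1.03 ± 0.25, adjusted p = 0.0153). Mmp14, a membrane protease that sheds syndecans, fell in HE1 (by 1.05, adjusted p = 0.0422) and progenitors (by 1.29, adjusted p = 0.0153). Cask, a scaffold that binds the syndecan cytoplasmic tail, rose in HE2 (by 0.82, adjusted p = 0.00266). The heparan sulfate proteoglycan Col18a1, one of the most abundant genes of the lists, fell from a mean of 437 to 218 FPKM in HE1 (adjusted p = 0.0149), from 369 to 175 in HE2 (adjusted p = 0.0107) and from 111 to 53.8 in progenitors (adjusted p = 0.00765). Hspg2 (perlecan) fell in progenitors, from 14.4 to 4.05 FPKM (adjusted p = 0.000651).

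Of the chain-making enzymes in this mutant, 2 of 14 genes of chondroitin sulfate synthesis were lower in each of HE1, HE2 and progenitors. Among all genes 4.35%, 4.97% and 5.04% were lower there, and counts of 2 are too small to tell their share from the background. Chst14, a sulfotransferase of dermatan sulfate, fell by 1.60 ± 0.48 in HE1 (adjusted p = 0.0388), by 2.43 in HE2 (adjusted p = 0.00296) and by 2.03 in progenitors (adjusted p = 0.0111). Csgalnact2, which starts chondroitin chains, fell in ESC (by 0.82, adjusted p = 0.0278), HE1 (by 0.77, adjusted p = 0.0287) and HE2 (by 1.21, adjusted p = 0.00123). Of 22 genes of heparan sulfate synthesis, 2 were higher in HE1 (Hs6st1, by 0.65, adjusted p = 0.0118, and Glce, by 0.59, adjusted p = 0.0295) and 2 in HE2 (Ndst2, by 0.65, adjusted p = 0.0234, and Glce, by 0.55, adjusted p = 0.0439), and 1 was lower in HE2. Among all genes 5.69% were higher in HE1, and 4.7% higher and 4.97% lower in HE2, so these counts too do not stand apart from the background. Among the 13 other receptors, Itga6 rose in Flk1+ cells (by 0.94, adjusted p = 0.0272) and Gpc2 in HE2 (by 1.51, adjusted p = 0.0200). The median difference of the 70 genes was 0.11 in Flk1+ cells, -0.13 in HE1, 0.01 in HE2 and -0.11 in progenitors, beside 0.02, 0.02, 0.04 and 0.05 over all genes. Without the 6 libraries, which sets 1 sample against 1, Ndst2 in HE2 was higher by 0.56 in place of 0.65. Gpc2 there was higher by 0.83 in place of 1.51, and Hspg2 in progenitors was lower by 0.88 in place of 1.71.

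In Sp3-/- cells, 1 of the 70 genes was higher and 2 lower in ESC (5.4% and 5.91% of all genes), 4 and 1 in Flk1+ cells (6.69% and 5.94%), 1 and 10 in HE1 (6.02% and 4.87%), 5 and 11 in HE2 (6.97% and 6.84%), with 1 and 6 in progenitors (3.88% and 4.77%). The lower counts come to 14.3% of the lists in HE1, 15.7% in HE2 and 8.57% in progenitors. Without the 6 marker-rich libraries the calls draw their spread from other groups, so how many were made again is no test of these groups. The median difference was -0.30 in HE1, -0.19 in HE2 and -0.13 in progenitors, beside 0.05, 0.03 and 0.04 over all genes. Of the 13 other receptors, 4 were lower in HE1, 4 in HE2 and 3 in progenitors, beside 4.87%, 6.84% and 4.77% of all genes, and 0 were higher. Itga6, an integrin subunit, fell from 20.9 to 8.90 FPKM in HE1 (adjusted p = 0.00360), from 24.2 to 7.12 in HE2 (adjusted p = 0.000236) and from 21.5 to 11.5 in progenitors (adjusted p = 0.0298). Vcan (versican), a chondroitin sulfate proteoglycan that binds midkine, fell from 52.3 to 16.4 in HE1 (adjusted p = 0.000596), from 18.7 to 6.78 in HE2 (adjusted p = 0.00175) and from 14.1 to 7.07 in progenitors (adjusted p = 0.0236), and Itgav fell in ESC (by 0.67, adjusted p = 0.00365).

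The proteoglycans Gpc4 (from 8.48 to 0.579 FPKM, adjusted p = 0.0106) and Cd44 (from 37.7 to 9.14, adjusted p = 0.0185) fell in Sp3-/- HE1 cells, and Cd44 also in HE2 (from 17.0 to 4.78, adjusted p = 0.0369). The muscle and fibroblast marker sums were also higher in both WT than in both Sp3-/- HE1 libraries (given above). The epithelial sums overlapped there, at 809.7 and 77.7 in WT and 80.6 and 31.1 in Sp3-/-. Without the 6 marker-rich libraries, which leaves 1 WT sample in each population, Gpc4 was lower by 1.93 in place of 3.18. Cd44 was lower by 1.80 in place of 2.09 in HE1 and by 1.36 in place of 1.76 in HE2. B3galt6, an enzyme of the linker that joins both kinds of chain to the protein, rose by 0.81 in ESC (adjusted p = 0.0445), by 0.98 in HE2 (adjusted p = 0.0150) and by 0.99 in progenitors (adjusted p = 0.0196). Ndst2 rose by 0.68 in HE2 (adjusted p = 0.0143), and the syndecan sheddase Adam10 fell by 0.76 there (adjusted p = 0.0232). Without the 6 libraries, which leaves 1 WT sample in HE2 and in progenitors, B3galt6 was higher by 0.87 in HE2 and 1.04 in progenitors. Ndst2 was then higher by 0.47 and Adam10 lower by 0.46 in HE2. None of these libraries is of ESC. In Flk1+ cells Chst7 (by 1.98, adjusted p = 0.0175), Chst15 (by 1.31, adjusted p = 0.0178) and Mmp14 (by 1.10, adjusted p = 0.0286) rose. The mesoderm and pluripotency marker sums were also higher in the Sp3-/- than in the WT Flk1+ samples (given above).

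Between WT populations, 42 of the 70 genes were higher and 7 lower in Flk1+ cells than in ESC (27.4% and 24.7% of all genes), with a median of 0.92 (0.03 over all genes), and 32 were higher and 14 lower in HE1 than in Flk1+ cells (23.5% and 29.5%), with a median of 0.63 (-0.08 over all genes). From HE1 to HE2 cells 4 were higher and 23 lower (11.7% and 10.2% of all genes, median -0.52), and from HE2 to progenitors 3 were higher and 14 lower (5.46% and 7.78%, median -0.23). Without the 6 marker-rich libraries, which leaves 1 WT sample in each of HE1, HE2 and progenitors, fewer genes were called at these last steps. This held both for the lists and for all genes, and such counts are no test of these steps. From Flk1+ to HE1 cells the number of list genes called was not smaller. The receptor Lrp2 was at 21.4 FPKM in ESC and 0.0939 in Flk1+ cells (adjusted p = 1.72e-05), the opposite direction to its relative Lrp1, and Lrp8 rose from 0.971 to 3.28 (adjusted p = 0.000345). Gpc3 rose from 19.8 in ESC to 352 in Flk1+ cells (adjusted p = 5.51e-07) and fell to 28.4 in HE1 (adjusted p = 1.96e-06). Itgb3, which pairs with the CD41 integrin chain used in the sort, rose from 3.34 in HE1 to 119 FPKM in HE2 (adjusted p = 1.47e-07). Col18a1 rose from 20.2 in Flk1+ cells to 437 in HE1 (adjusted p = 6.69e-11) and Hspg2 fell from 143 in HE1 to 48.9 in HE2 (adjusted p = 0.000641).

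The genes whose pattern over the 15 group means was most like that of Mdk, among 12016 genes with a mean above 3 FPKM in at least 1 group, were Ackr3 (Pearson r = 0.925 of log2 values), Efs (0.914), Kif7 (0.914), Atat1 (0.911) and Tcf7 (0.905). In WT cells Ackr3, an atypical chemokine receptor, was at a mean of 1.04 FPKM in ESC, 14.4 in Flk1+ cells and 1.46 in HE1. Among the receptors, Sdc1 was the most like Mdk (r = 0.875 over 15 group means), followed by Sdc2 (0.598) and Lrp1 (0.596). The correlations describe groups that share normalisation and 5 populations, and carry no test.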

How the data were processed

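RNA-seq of 30 samples was used, grouped by the population, genotype and replicate in the labels. Libraries were stranded, ribosome-depleted total RNA. Per the labels and the study's methods, the authors trimmed reads, mapped them to mm10 (HISAT2 2.1.0) and estimated FPKM with StringTie (1.3.3 in the submitters' processing notes). Genes that never exceeded 1 FPKM were dropped, and the deposited FPKM values were quantile normalised by the authors, which removes shifts of all genes together. The depth per sample is unknown, so no counting interval was made.

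Tests used limma 3.58.1 (R 4.3.3) with an intensity trend on log2(FPKM + 0.1) of 14525 genes above 1 FPKM in a sample, as 15 group means over 30 samples. The p-values are two-sided and Benjamini-Hochberg adjusted within each comparison, with a threshold of 0.05. Deviations of same-numbered samples correlated between HE1, HE2 and progenitors (r of 0.0349 to 0.612 within genotypes) and between WT and Sp1 ΔDBD/ΔDBD (0.222 to 0.455), so the 15 residual degrees of freedom are too many.

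Alternatives were a pseudocount of 1, no filter or a group mean above 3 FPKM, no trend, a replicate block, a correction for GC content and length, fits per population or of WT alone, and leaving out each replicate. Leaving out 6 libraries high in epithelial and muscle markers was added after their values were seen. The members and lists were chosen with earlier results of these data known. Named are all members, the 5 genes most like Mdk, Sp1 and Sp3, markers, and from each list and comparison up to 2 called genes with the largest change and over 3 FPKM in 1 group. The script was tested on simulated data. Positions came from GENCODE M21 and promoters from RefSeq.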

Additional observations from a re-analysis of the deposited data

Results flagged for a closer look

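For Sdc4, the effect of the Sp1 ΔDBD/ΔDBD mutation differed between populations by the test of the difference itself. Its level was 51.8 and 40.3 FPKM in the mutant against 30.2 and 19.7 in WT ESC, and 3.59 and 3.48 against 4.43 and 5.43 in HE1, a difference between the log2 effects of -1.37 ± 0.31 (SE, limma adjusted p = 0.0170). In progenitors it was at 0.858 and 0.796 against 0.907 and 1.11, and the difference from the ESC effect was -1.16 ± 0.31 (adjusted p = 0.0454). Both comparisons share the ESC samples. In HE2, Sdc4 was at 2.21 and 2.13 in the mutant against 1.49 and 1.64 in WT. The difference from the ESC effect there was -0.46 ± 0.31 and did not pass (limma adjusted p = 0.528).

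Leaving out a replicate kept the call for HE1 in 4 of 8 fits. It was lost without WT ESC replicate 2 (adjusted p = 0.102), mutant ESC replicate 1 (0.0894), WT HE1 replicate 2 (0.0629) or mutant HE1 replicate 2 (0.0609). The call for progenitors was kept in 2 of 8 fits, those without WT ESC replicate 1 or mutant ESC replicate 2, with the highest adjusted p without WT ESC replicate 2 (0.211). Without the 6 libraries high in epithelial and muscle markers, 1 mutant and 1 WT sample were left in HE1 and in progenitors. The differences were then -1.53 for HE1 and -1.34 for progenitors.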

How the results depend on the processing

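None of the 22 calls turned direction under any alternative tried. In a fit of each population by itself, the limma calls in Sp1 ΔDBD/ΔDBD went from 6 to 0 (10 at an unadjusted p under 0.05 in both fits) and those in Sp3-/- from 2 to 1, while over all genes and the 5 comparisons they went from 5823 to 1087 and from 8325 to 2729, with fewer samples behind the spread. The differences from the ESC effect gave 2 calls, 4 with a pseudocount of 1, 4 with the GC content and length correction and 11 with the replicate block. Over all genes they went from 2473 to 4270 with a pseudocount of 1 and to 5472 with the block. The cause was not tested. Leaving out a replicate gave 4 to 8 calls for Sp1 ΔDBD/ΔDBD, 1 to 3 for Sp3-/-, 11 to 14 for the WT steps and 0 to 3 for the differences, where the limma count was 0 without mutant ESC replicate 1 (9 at an unadjusted p under 0.05) and without mutant HE1 replicate 2 (10), both of Sp1 ΔDBD/ΔDBD. With the 6 marker-rich libraries left out, 1 sample is left in each group that lost one, so counts of calls from that fit are not set beside these.

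Among differences that had not passed, those of Mdk in Sp3-/- cells changed sign in Flk1+ cells with the GC and length correction (to -0.045) and without the 6 libraries in HE2 (to 0.019) and progenitors (to 0.11). With a replicate left out, Mdk ranged from -0.53 to 0.26 in Sp1 ΔDBD/ΔDBD ESC, from -0.079 to 0.019 in Sp3-/- HE2 and from -0.34 to 0.11 in Sp3-/- progenitors. Over the 154 tests of the 7 genes, 2 changed sign with a pseudocount of 1, 12 with the correction and 21 without the 6 libraries, of which 0 were called in either fit.

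Replicate numbers are shared by the genotypes, but nothing in the labels says that a number marks a shared culture. The deviations of WT samples correlated across genes at 0.222 to 0.455 with those of Sp1 ΔDBD/ΔDBD samples of the same number, and at 0.00473 to 0.193 with those of Sp3-/- samples. With the number as a replicate block, 14 of 154 tests gained a call and 0 lost it. For the WT steps and the differences from the ESC effect this block is the number shared by the populations of a genotype, although ESC deviations correlated with those of HE1, HE2 and progenitors at only -0.0435 to 0.193. A block of the number shared by the genotypes of a population, added after the calls were seen, gave 4 calls of differences in place of 11. The gained calls included Mdk in Sp1 ΔDBD/ΔDBD HE2 (-0.92, limma adjusted p = 0.0310), and the counts were 7 for Sp1 ΔDBD/ΔDBD, 2 for Sp3-/- and 16 for the WT steps.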
